A study of Felis catus with 2 samples.

Results

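Small leucine-rich proteoglycans (SLRPs) are secreted proteins built on a core of leucine-rich repeats, most of which carry chains of keratan, dermatan or chondroitin sulfate. They bind fibrillar collagen and help to set the diameter and spacing of its fibrils, a property on which corneal transparency and the toughness of the sclera depend. Dermatopontin is a small tyrosine-rich matrix protein that is not a leucine-rich protein itself but binds decorin and collagen. This account covers 9 genes of that kind, KERA, LUM, DCN, FMOD, OGN, BGN, PRELP, ASPN and DPT, each found under its exact name on 1 of the 32065 loci in the deposited table. All 9 reached the minimum of 1 FPKM, a fragment count corrected for transcript length and sequencing depth, in at least 1 library, as did 16676 loci in all. They were chosen by family and name with the FPKM of these libraries already known, so the levels and ratios are given as a description. No name stood on more than 1 row.

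Polyadenylated RNA was measured in 2 libraries of the iridocorneal angle, the drainage region between iris and cornea. The affected library came from 1 cat with primary congenital glaucoma, of a colony in which the disease segregates with a frameshift insertion in LTBP2. The normal library came from 1 healthy, unrelated cat, and both animals were 2 months old. Per the study's methods the pieces also held ciliary body, sclera and trabecular meshwork, and the sex and breed of these cats are not given in the sources used here. Disease, genetic background, animal and dissection cannot be told apart here, and no difference can be tested with 1 library per condition. Genes of the ciliary muscle and ciliary epithelium were present in both, with ACTA2 (smooth muscle actin) at 600.0 FPKM in the normal library against 699 FPKM in the affected library, and OPTC (opticin) at 351 and 1235 FPKM. Of the 7 smooth muscle markers listed, 4 were lower in the affected library and 3 higher, from TAGLN (transgelin) at 501 and 199 FPKM to MYH11 (smooth muscle myosin) at 88.2 and 141 FPKM, with a median log2 ratio of −0.41.

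The 9 genes did not move as a block. KERA, LUM, DCN, BGN, DPT and ASPN were at least 2-fold lower in the affected library, PRELP was at least 2-fold higher, and FMOD and OGN were within 2-fold of the normal level. With the libraries scaled to general fibroblast markers instead, ASPN was no longer lower and FMOD joined PRELP. In bulk tissue, fewer cells of a type and less RNA per cell cannot be told apart. Across all loci past the minimum, 8.75% were at least 2-fold lower and 8.14% at least 2-fold higher. The 6 of 9 genes lower compare with the first share, and the 1 of 9 higher with the second. With a mean of at least 5 FPKM, which all 9 genes had, the background shares were 6.46% lower and 7.62% higher. At least 4-fold lower were 5 of the 9 genes, against 1.79% of all loci, and none was 4-fold higher, against 1.68%. At least 8-fold lower were 4 of the 9 genes (KERA, DPT, LUM and DCN), against 0.516% of all loci. Fold thresholds and log2 ratios, affected over normal, refer to the FPKM as deposited with 1 added to each value, which understates the change of low loci. The median log2 ratio of the 9 genes was −2.39, with a range from −7.80 to 1.16, and that of all loci past the minimum was −0.0047.

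**Figure D1:**
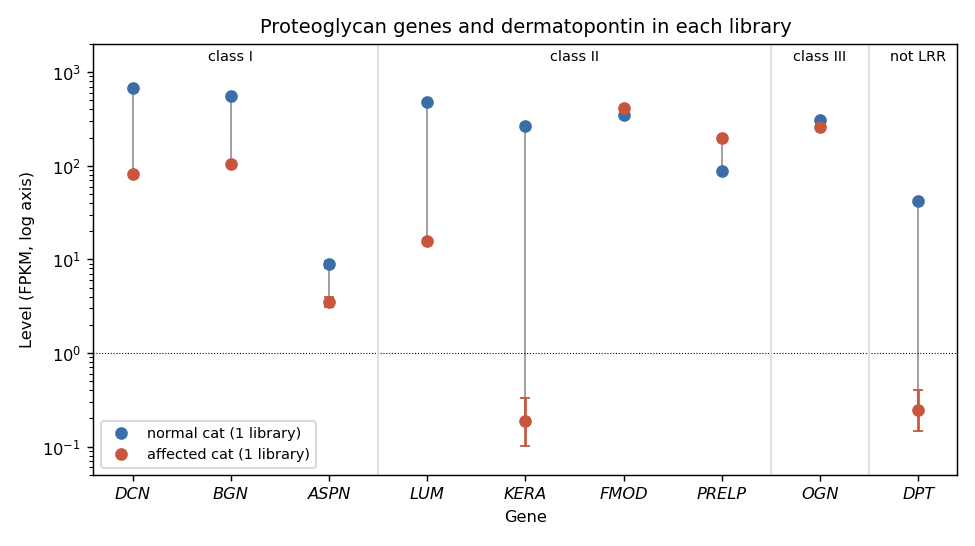
Deposited level in FPKM (log axis) of each of the 9 genes in the normal (blue) and the affected library (red), 1 library per condition, ordered by family class; "not LRR" marks dermatopontin, which has no leucine-rich repeats. Bars are 95% counting intervals for 1 kilobase of effective transcript length, mostly smaller than the points, and the dotted line marks 1 FPKM; KERA and DPT are the only genes drawn below it, both in the affected library.

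Keratocan, the product of KERA, is a keratan sulfate proteoglycan known for its abundance in corneal stroma, where its loss flattens the cornea. KERA had 265 FPKM in the normal library against 0.190 FPKM in the affected library, so that the affected level was 0.0716% of the normal one. The normal value exceeded 98.2% of the loci past the minimum and the affected value 1.59%. The log2 ratio was −7.80, and 4 loci of 16676 had a lower one, all of them listed at 0 in the affected library. Of 775 loci with at least 100 FPKM in the normal library, 8 were under 1 FPKM in the affected one, and 6 of these were listed at 0. A listed 0 in a file without counts can be a failed estimate and is not read as absence here, so KERA was 1 of 2 loci in that set with a measured value.

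The affected value of KERA rests on few fragments. The steps between low values in the table correspond to 71200000 fragments in the normal library and 67600000 in the affected one, and 12.8 fragments per kilobase of effective transcript length gave the affected value, against 18849 in the normal library. For 1 kilobase of effective length the counting error alone leaves the normal level between 805 and 2586 times the affected one (95% exact interval). A longer transcript would narrow that interval, and variation between cats is not in it.

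Lumican, encoded by LUM, is also a keratan sulfate proteoglycan of the corneal stroma and regulates fibril spacing there. LUM had 479 FPKM in the normal library against 15.6 FPKM in the affected library, a 30.7-fold difference (28.9 to 32.7 from counting error on 1 kilobase) with a log2 ratio of −4.86. LUM was 1.81 times KERA in the normal library and 82.3 times KERA in the affected library. The difference between the cats was therefore unequal for LUM and KERA. In the affected library LUM was still above 66.9% of the loci and KERA was near the bottom.

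Fibromodulin and PRELP belong to the same class II as lumican and keratocan, and their levels were higher or nearly the same in the affected library. FMOD, whose product binds fibrillar collagen at a site shared with lumican, had 352 FPKM in the normal library against 416 FPKM in the affected library, with a log2 ratio of 0.24. PRELP, an SLRP with a basic, heparin-binding end that sits near basement membranes, was listed at 87.0 and 196 FPKM, with a log2 ratio of 1.16. FMOD was 0.734 times LUM in the normal library and 26.7 times LUM in the affected one. The 4 genes of class II spanned 8.97 on the log2 scale, the whole range of the 9 genes, since KERA had the lowest ratio and PRELP the highest.

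Decorin, biglycan and asporin form class I. Decorin carries 1 dermatan or chondroitin sulfate chain and biglycan usually carries more than that, while asporin has a run of aspartates and no such chain. DCN, listed at 686 FPKM, was the highest of the 9 genes in the normal library, and stood at 82.2 FPKM in the affected library (log2 ratio −3.04). BGN was listed at 554 and 105 FPKM (log2 ratio −2.39). ASPN was low in both cats, with 8.84 FPKM in the normal library against 3.51 FPKM in the affected library (log2 ratio −1.13, and 0.092 when the general fibroblast markers were set to no change). DCN and BGN thus stayed well expressed in the affected cat, above 93.8% and 95.1% of the loci, although both were at least 4-fold lower than in the normal one. BGN was 0.808 times DCN in the normal and 1.28 times DCN in the affected library, so their order was exchanged.

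Osteoglycin (mimecan), the class III member, is a keratan sulfate proteoglycan in the cornea and is made by many other connective tissues. OGN had 306 FPKM in the normal library against 259 FPKM in the affected library. Its log2 ratio was −0.24, and 0.98 with the general fibroblast markers set to no change. The level of OGN exceeded 98.4% of the loci in the normal library and 98.0% in the affected one, so it ranked high in both.

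The difference in dermatopontin was larger than that in its partner decorin, and its ratio lay between those of KERA and LUM. DPT had 42.5 FPKM in the normal library against 0.247 FPKM in the affected library, with a log2 ratio of −5.13. The affected value corresponds to 16.7 fragments per kilobase, and counting error alone leaves the normal level between 105 and 291 times the affected one for 1 kilobase of effective length. DCN was 16.1 times DPT in the normal library and 332 times DPT in the affected one. The counting intervals of the affected KERA value (0.102 to 0.329 FPKM) and the affected DPT value (0.146 to 0.403 FPKM) overlap, so the order of these genes in the affected library is not fixed at this depth.

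The order of the levels was therefore different in the 2 cats. In the normal library it ran DCN, BGN, LUM, FMOD, OGN, KERA, PRELP, DPT and ASPN from highest to lowest. In the affected library it ran FMOD, OGN, PRELP, BGN, DCN, LUM, ASPN, DPT and KERA. Apart from DPT and KERA in the affected library, neighbours in both orders were separated by more than their counting intervals for 1 kilobase, which do not include the variation between animals. KERA went from place 6 to place 9 and PRELP from place 7 to place 3.

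Shares of the 9-gene total do not depend on the scaling between libraries. The summed level was 2779 FPKM in the normal library against 1078 FPKM in the affected library, or 0.428% and 0.160% of the FPKM summed over all 32065 loci. DCN made up 24.7% of the sum in the normal library and 7.62% in the affected one, BGN 19.9% and 9.72%, LUM 17.3% and 1.45%, and KERA 9.52% and 0.0176%. FMOD was at 12.7% and 38.6%, OGN at 11.0% and 24.1%, and PRELP at 3.13% and 18.2%. DPT held 1.53% and 0.0229%. ASPN held 0.318% and 0.326%, a share that hardly moved. Decorin, biglycan and lumican led the total in the normal cat, and fibromodulin, osteoglycin and PRELP led it in the affected cat.

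**Figure D2:**
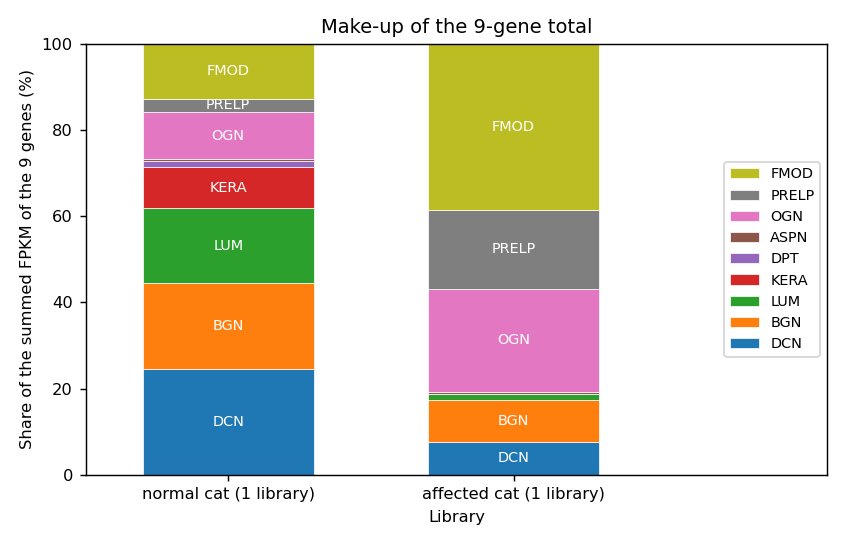
Share of each gene in the summed FPKM of the 9 genes (%, axis from 0) in the normal and the affected library, 1 library per condition. FMOD, PRELP and OGN, at the top, grow from 12.7%, 3.13% and 11.0% in the normal to 38.6%, 18.2% and 24.1% in the affected library, while KERA (9.52% in the normal library) is too thin to see in the affected one.

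Several SLRP genes lie in clusters on the cat chromosomes, and the ratios are given cluster by cluster. On chromosome B4 of felCat5, KERA lies from 115190829 to 115198165, LUM from 115234013 to 115243704 and DCN from 115280226 to 115322878, with gaps of 35.8 and 36.5 kilobases between them. The 3 genes together were listed at 1430 FPKM in the normal library against 98.0 FPKM in the affected library, and their log2 ratios of −7.80, −4.86 and −3.04 follow their order along the chromosome. EPYC (epiphycan), 46.5 kilobases before KERA, was listed at 0.216 and 0.0178 FPKM, under the minimum in both libraries.

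On chromosome F1, FMOD lies from 41405403 to 41416523 and PRELP from 41510090 to 41523668. OPTC, the vitreous SLRP opticin made by ciliary epithelium, starts 822 bases after PRELP. The summed level of FMOD and PRELP was 439 FPKM in the normal library against 612 FPKM in the affected library. OPTC had a log2 ratio of 1.81, and a second row of that name with the same span, at 23.8 and 78.1 FPKM, had one of 1.68. DPT, from 11089959 to 11116627, is on the same chromosome but lies 30288775 bases away from FMOD. FMOD, PRELP and OPTC each had a higher value in the affected library, which for FMOD and PRELP held under each scaling tried.

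OGN and ASPN are listed on chromosome D4 from 536074 to 791736, a span of 255663 bases that 6 loci of the table share. Among the other loci there, OMD (osteomodulin, a keratan sulfate SLRP of bone) had 7.23 FPKM in the normal library against 41.0 FPKM in the affected library (log2 ratio 2.35). ECM2, a matrix protein with leucine-rich repeats, was listed at 13.4 and 16.7 FPKM (log2 ratio 0.30). The D4 neighbours thus differed in direction, with OMD higher, ASPN lower (on the deposited scale, not on that of the fibroblast markers), and OGN and ECM2 within 2-fold. The library kit does not mark the strand, so reads from parts of overlapping genes on opposite strands cannot be told apart. BGN is the one of the 9 genes on chromosome X, from 124301694 to 124316387.

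**Figure D3:**
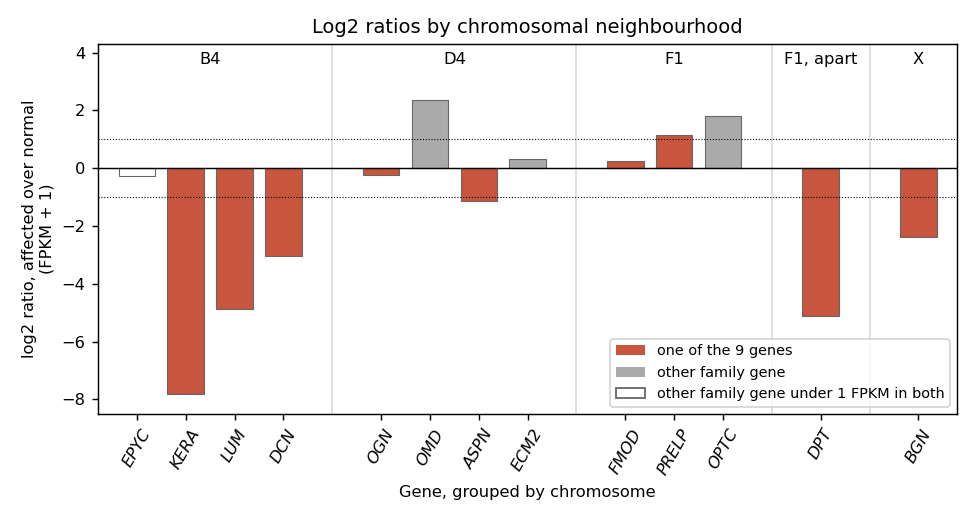
Log2 ratio of FPKM + 1, affected over normal, for the 9 genes (red) and the other family genes beside them (grey, white where under 1 FPKM in both libraries), 1 library per condition; dotted lines mark 2-fold. On B4 and F1 genes are in the order of their start, and on D4 in the order of the table, where all 4 have the same listed span; KERA, LUM and DCN on B4 all lie below −3, while FMOD, PRELP and OPTC on F1 lie above 0.

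Beyond the 9 genes, 10 further members of the leucine-rich family were listed, and 8 of them passed the minimum. At least 2-fold higher were 3 (OPTC, OMD and TSKU), at least 2-fold lower was 1 (CHAD), and the median log2 ratio was 0.55. That median stayed above 0 but depended on the filter and scale, at 1.81 with a mean of at least 5 FPKM, 0.22 with no minimum and 0.26 with each library set to the same sum. TSKU (tsukushi), a secreted inhibitor of several signalling pathways, had 36.6 FPKM in the normal library against 228 FPKM in the affected library, and PODN (podocan), a collagen-binding SLRP, had 104 and 180 FPKM. CHAD (chondroadherin, of cartilage) was listed at 3.01 and 0.282 FPKM. The remaining values were low, with NYX (nyctalopin, of the retina) at 1.16 and 0.309 FPKM, PODNL1 at 1.05 and 0.317 FPKM, and CHADL at 0.710 and 0.871 FPKM.

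The collagens that SLRPs bind were lower in the affected cat where both libraries gave a value. Of 10 stromal collagen genes, 8 were listed and 7 were at least 2-fold lower. COL1A1, of type I collagen, had 2476 FPKM in the normal library against 41.8 FPKM in the affected library (log2 ratio −5.86). COL1A2, its partner chain, was listed at 0 in the normal library against 447 FPKM in the affected library. With COL1A1 so high in the normal cat, that 0 is not read as absence. In the affected library the chains also stood far apart, at 41.8 FPKM for COL1A1 and 447 FPKM for COL1A2. The affected COL1A1 value, its log2 ratio and the percentages of COL1A1 below therefore carry a doubt that was not tested. Without COL1A2 the median log2 ratio of the list was −3.02, and with it −2.89. The SLRPs were also set against 3 collagens chosen after their values had been seen, COL1A1, COL3A1 (type III) and COL6A1 (type VI). In that order LUM stood at 19.4%, 115% and 135% of the collagen level in the normal library against 37.3%, 121% and 22.4% in the affected library. BGN stood at 22.4%, 133% and 156% against 251%, 811% and 150%. LUM was thus higher relative to COL1A1 and lower relative to COL6A1, and BGN higher relative to COL1A1 and COL3A1, while LUM against COL3A1 and BGN against COL6A1 differed too little between the libraries to give a direction. KERA, at 10.7%, 63.7% and 74.8% against 0.454%, 1.47% and 0.272%, was lower relative to all 3. FMOD, at 14.2%, 84.7% and 99.4% against 996%, 3218% and 596%, was higher relative to all 3.

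The enzymes that build the sugar chains had list medians nearer to 0 than the −2.39 of the 9 genes, although FMOD and OGN differed less than several of the enzymes. Of 9 genes of keratan sulfate synthesis, 5 were listed and 4 passed the minimum, with a median log2 ratio of 0.014 that fell below 0 under 3 other settings, down to −0.12. CHST2, a sulfotransferase, was the one at least 2-fold higher, at 35.9 FPKM in the normal library against 72.9 FPKM in the affected library, and the galactosyltransferase B4GALT1 had the lowest ratio, at 49.7 and 31.9 FPKM. Of 16 genes of chondroitin and dermatan sulfate synthesis, 14 were listed and 13 passed the minimum, with a median of −0.26 that turned to 0.37 among genes averaging 5 FPKM or more, and sums of 275 FPKM in the normal library against 403 FPKM in the affected library. Only CSGALNACT1, which starts the chain, was at least 2-fold lower (5.42 and 1.65 FPKM), and only the polymerising factor CHPF at least 2-fold higher (120 and 252 FPKM). None of the 5 listed genes of the 7 that build the linker between chain and core protein passed 2-fold, from B4GALT7 at −0.74 to B3GAT3 at 0.073 on the log2 scale. Other proteoglycans had a median of −0.45 over 16 genes past the minimum, with 5 at least 2-fold lower and 2 higher, from GPC3 (glypican 3) at −2.37 to SDC4 (syndecan 4) at 1.84.

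**Figure D4:**
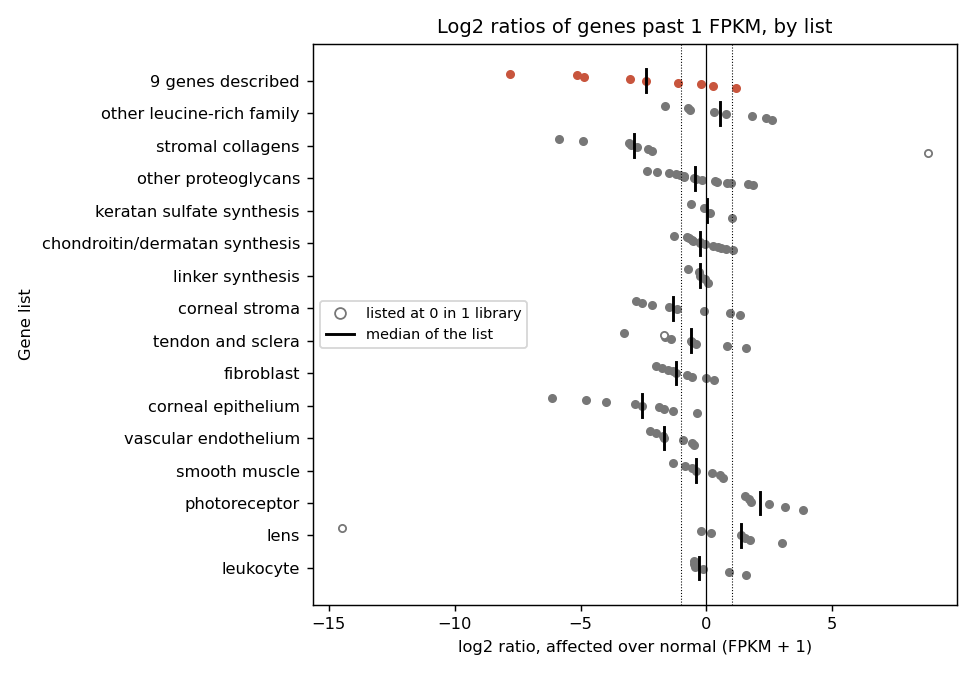
Log2 ratio of FPKM + 1, affected over normal, of each gene past the minimum in the 9-gene set (red) and 15 other gene lists (grey), 1 library per condition, with a black bar at each list's median, dotted lines at 2-fold and open points for genes listed at 0 in 1 library. The 9 genes spread from −7.80 to 1.16, the collagens other than COL1A2 lie at or below −2.18, and the 3 lists of sugar chain enzymes lie between −1.28 and 1.07.

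Markers of several cell types also differed between the libraries. Among corneal and conjunctival epithelium markers 9 of 10 were listed, none at 0, and 8 were at least 2-fold lower. Their summed level was 585 FPKM in the normal library against 30.6 FPKM in the affected library, led by KRT12, the keratin of corneal epithelium, at 299 and 3.27 FPKM. Corneal stroma markers other than the 9 genes were listed for 8 of 9, none at 0. Of these 5 were at least 2-fold lower and 1 higher, from CD34 at 75.8 and 10.2 FPKM to ANGPTL7 at 2.51 and 7.93 FPKM, while the summed level, led by PTGDS (prostaglandin D synthase) at 972 and 1840 FPKM, was 2189 FPKM in the normal library against 2215 FPKM in the affected library. ALDH3A1, the corneal crystallin enzyme, was listed at 475 and 79.2 FPKM. The part of corneal tissue in the values of KERA, LUM and DPT was not tested.

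General fibroblast markers were all listed, 9 of 9 with none at 0. Their summed level was 2703 FPKM in the normal library against 1835 FPKM in the affected library. VIM (vimentin) led these sums, at 1647 FPKM in the normal library and 1105 FPKM in the affected one. The median log2 ratio of the fibroblast markers was −1.22, with 5 at least 2-fold lower. Their ratios ran from FAP (fibroblast activation protein) at −2.01 to LOXL1 (lysyl oxidase-like 1) at 0.28. Relative to that median the log2 ratios were −6.58 for KERA, −3.91 for DPT, −3.64 for LUM, −1.83 for DCN and −1.17 for BGN, and 1.46 for FMOD and 2.38 for PRELP. Markers of tendon and sclera had a median of −0.62, with 9 of 10 listed, 4 at least 2-fold lower and 1 higher, from CRTAC1 (log2 ratio −3.27) to COMP (log2 ratio 1.56). Their summed level was 126 FPKM in the normal library against 71.8 FPKM in the affected library, and TNMD was listed at 0 in the affected one.

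Vascular endothelium markers (7 of 8 listed, none at 0) had a median of −1.70 and a summed level of 137 FPKM in the normal library against 47.9 FPKM in the affected library, from EMCN at −2.23 to KDR at −0.51. Smooth muscle markers (7 of 8 listed, none at 0) had a median of −0.41, with sums of 1287 and 1114 FPKM, from TAGLN at −1.33 to MYH11 at 0.67. Photoreceptor markers (6 of 8 listed, none at 0) were all at least 2-fold higher, with sums of 330.2 and 1481 FPKM, from ROM1 at 1.52 to CNGA1 at 3.83. Lens markers (7 of 8 listed) summed to 49447 and 33135 FPKM with a median of 1.37, with BFSP1 at 38.4 and 315.5 FPKM, and CRYAA was listed at 0 in the affected library. Without CRYAA, left out after its values were seen, the sums were 26469 and 33135 FPKM, so the direction of the sum turned, and the median was 1.45. Leukocyte markers (6 of 8 listed, none at 0) had a median of −0.30 and sums of 32.2 and 37.2 FPKM, from AIF1 at −0.51 to CD163 at 1.58. The part of these cells in the values of the 9 genes was not tested.

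The named genes nearest to each of the 9 were found by the distance between their log2(FPKM + 1) values over the 2 libraries. KERA had 1 named gene within a distance of 1, PLTP, a lipid transfer protein, followed by HBA (alpha globin) and CTSA (cathepsin A). PLTP and CTSA share one span in the file and were both listed at 0 in the affected library, so their distances rest on values that may be failed estimates. LUM also had 1, COL3A1 at a distance of 0.327, followed by PCOLCE, which enhances collagen processing, and TYR (tyrosinase). DPT had 7 named genes within that distance, the nearest being DKK2, KLK12 and CPAMD8, of which CPAMD8 was also listed at 0 in the affected library. DCN had 10, led by NREP and AKR1B1 with BGN as the third, and BGN had 15, led by AKR1B1, PMEL and COL6A2. The genes with smaller differences lay in crowded regions, with 85 genes that near to FMOD (first MMP2 and SPCS1), 134 to OGN (first PGAM4, ATP5G3 and NDUFC1) and 240 to PRELP (first TOMM20, SERPING1 and SRSF5). ASPN had 1880, led by SLC18B1, EHD4 and SNAPC3.

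**Figure D5:**
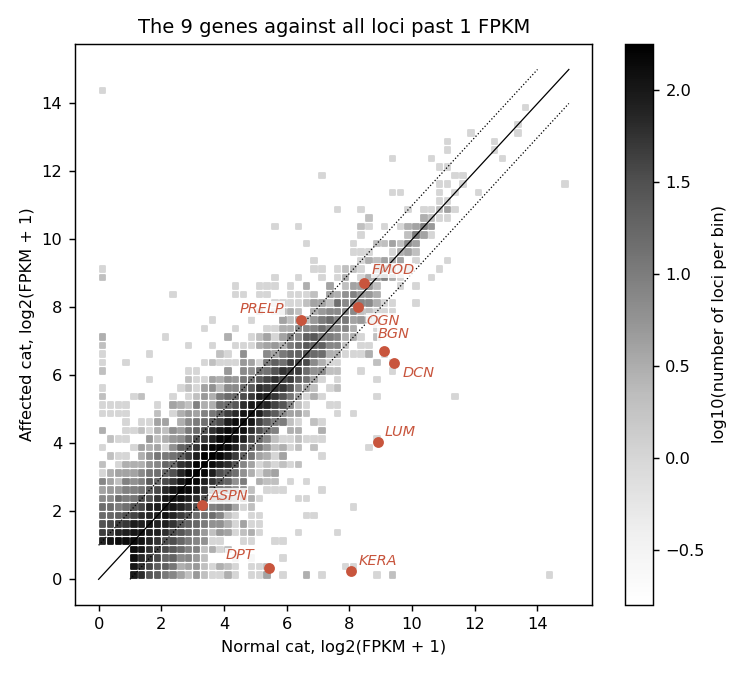
Level of the 9 genes (red points) in the normal (horizontal) and affected library (vertical), both log2(FPKM + 1), over the number of loci past the minimum in each bin (grey scale, log10), 1 library per condition; the solid line marks equal levels and the dotted lines 2-fold. KERA, DPT and LUM lie apart from the dense band of loci, and FMOD, OGN and ASPN lie on it or at its edge.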

How the data were processed

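The deposited values are FPKM, calculated by the authors with Cufflinks 2.1.1 and cummeRbund after alignment of the reads to felCat5 with TopHat2 2.0.9 and Ensembl gene predictions, from TruSeq version 2 libraries made with 500 ng of RNA. Filters on loci and the scaling between the libraries are not given in the sources used here. These values suit no count model, and a single library on each side allows no p-value. Table starts count from 0 and were raised by 1 base.

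Genes were matched by exact name, using the row with the higher mean where a name repeats. Log2 ratios used a pseudocount of 1 FPKM and loci that reached 1 FPKM in either library. Fragment totals were inferred from the spacing of low values at loci without a name: 97.4% of 1207 values in the normal and 97.7% of 984 in the affected library lay within 0.03 of a whole fragment (6% by chance). From them came exact Poisson and conditional binomial 95% intervals for 1 kilobase, which cover counting error only. The log2 ratios and the fragment totals were checked on simulated data, and the intervals were not.

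The 9 genes and all lists were chosen with earlier results of these data known. Text names the 9 genes, the other leucine-rich genes, the highest and lowest ratio in each list, and the 3 nearest named genes with a symbol of their own; COL6A1, ALDH3A1, PTGDS, ACTA2 and TNMD were named after values were seen, and 1 gene that the rule names is not reported here. Alternatives were a pseudocount of 0.1, 3 scalings, no minimum, a minimum mean of 5 FPKM, a threshold of 4-fold, summed rows, and later scaling to the fibroblast median. No protein features were computed. Tools were Python 3.11.15, numpy 2.4.6, pandas 2.3.3, scipy 1.17.1 and matplotlib 3.10.9.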

Additional observations from a re-analysis of the deposited data

How the results depend on the processing

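KERA, LUM, DCN, BGN and DPT kept their direction and stayed at least 2-fold lower under all 8 alternatives, and PRELP stayed at least 2-fold higher. Of these, 3 (no minimum, the filter on the mean and summed rows) could not change a ratio, since all 9 genes pass both filters and have 1 row each. Another set the median log2 ratio of all loci, −0.0047, to 0, a shift too small to move any gene noticeably. The median log2 ratio of the 9 genes, −2.39, became −2.45 with each library set to sum to 1000000, −2.52 with the 10 highest loci left out of the sum, and −1.17 with the fibroblast median, −1.22, set to 0, which was chosen after the data were examined. Under that last scaling ASPN turned to 0.092 and OGN to 0.98, and 2 of the 9 genes (FMOD and PRELP) were at least 2-fold higher. At 4-fold 0 genes were higher and 5 lower. Over all loci, 280 were at least 4-fold higher and 298 lower, and 815 and 691 passed 2-fold with a mean of at least 5 FPKM, against 1358 and 1459. The 2-fold counts were less even under other scalings. They were 1143 higher and 1749 lower with the 10 highest loci left out of the sum, and 1568 and 1946 with equal sums. A pseudocount of 0.1 gave 1992 and 2173. A pseudocount of 0.1 moved KERA to −9.84, DPT to −6.94 and ASPN to −1.31. Of 90 list medians recomputed, 4 changed sign, 3 of keratan sulfate synthesis, to −0.037, −0.11 and −0.12, and 1 of chondroitin and dermatan synthesis, to 0.37. Of the 90, 28 moved by more than 0.1; beside the further leucine-rich genes, medians that kept their sign but moved over 1.5 times were those of leukocyte markers (−0.13), other proteoglycans (−0.29) and linker enzymes (−0.17) under the 5 FPKM filter on the mean, and of tendon and sclera markers (−0.99) with a pseudocount of 0.1. With FMOD left out of the 9-gene sum, DCN held 28.2% in the normal library and 12.4% in the affected library, from 24.7% and 7.62%. The cause of these shifts was not tested, beyond their construction. No paired analysis was possible because there is a single library on each side. The depth limits the affected values of KERA and DPT, with under 20 fragments per kilobase.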
